A study of Mus musculus with 5 samples.

Results

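The ribosome-bound RNA of ThCre-tagged midbrain cells was described in the 3 Esrrg WT libraries (WT-2, WT-3 and WT-4), out of 5 libraries in the series, over all genes of the count table. The libraries are those labelled WT, and no Esrrg Flox library entered any value. Each WT library came from midbrain of C57BL/6 mice with the genotype L10a;Esrrg WT, aged 4 months, that had received AAV:THCre 1 month earlier. These mice carried the L10a transgene, which places an EGFP tag on ribosomal protein L10a in cells with Cre recombinase, and they had no floxed Esrrg allele. Cre came from an adeno-associated virus with a rat tyrosine hydroxylase promoter, so the tagged cells were those in which this promoter fragment was active after a local injection. The study used both sexes, and the labels do not give the sex of the mice in a pool. Per the methods, 8 animals were pooled for each library, so the spread between libraries is a spread between pools. Neither a whole-midbrain input nor a library without Cre was analysed here, so the values are levels, not enrichments.

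Translating ribosome affinity purification (BAC-TRAP) pulls tagged ribosomes out of a tissue lysate with an antibody against EGFP and sequences the poly(A) RNA that comes with them, which reads out mRNAs engaged by ribosomes. Midbrain dopaminergic (DAergic) neurons make dopamine from tyrosine with tyrosine hydroxylase (Th) and aromatic amino acid decarboxylase (Ddc), load it into vesicles with the vesicular monoamine transporter (Slc18a2) and take it back up with the dopamine transporter (Slc6a3). They fire spontaneously, carry very large axonal arbors and have a high demand for ATP, and in the nigra they lie among GABAergic neurons, astrocytes and oligodendrocytes.

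The libraries held 20635855 (WT-2), 21104258 (WT-3) and 23105058 (WT-4) counts assigned to genes. Counts per 1000000 assigned counts (CPM) describe a gene's share of a library, and TPM, which divide by exon length before scaling to the same total, allow levels to be compared between genes. A gene without counts could still be present at up to 0.145, 0.142 and 0.130 CPM, the level of 3 counts, and this limit covers counting error only. WT-4 stood apart from the other libraries. Over the 9690 genes with a mean of at least 10 CPM, the Pearson correlation of log2 CPM across genes, which are not independent replicates, was 0.995 between WT-2 and WT-3, 0.987 between WT-2 and WT-4, and 0.986 between WT-3 and WT-4. The main genes and lists are therefore given library by library.

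The WT translatome was broad. A level of at least 1 TPM was reached by 15187 to 15570 genes per library, at least 100 TPM by 1932 to 1951 genes and at least 1000 TPM by 142 or 143 genes. The 10 most abundant entries took between 3.30% and 3.44% of the counts, the 100 most abundant 16.3% ± 0.211 (SD, n = 3) and the 1000 most abundant 51.0% ± 0.301. Protein-coding genes held 98.2% ± 0.269 of the counts. Long intergenic noncoding RNAs held 0.309% ± 0.0355, processed transcripts 0.153% ± 0.00625, processed pseudogenes 0.134% ± 0.00529 and antisense genes 0.131% ± 0.00298, and the last of these cannot be separated from their sense partners because the libraries were not strand-specific. Gene IDs without a match in the reference annotation held 0.846%, 1.02% and 0.602% in WT-2, WT-3 and WT-4. Nearly all of this was 1 entry, ENSMUSG00000119584.1, which was the most abundant of the table with 0.814%, 0.987% and 0.574% of the counts and has no name in the annotation used.

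Per length, the leading mRNAs encoded calcium-binding, cytoskeletal and secretory proteins together with parts of the ribosome and the respiratory chain. The cells that these mRNAs came from were not tested. Calm2, a calmodulin gene, was first, at 5058 TPM in WT-2, 5425 in WT-3 and 5029 in WT-4, a coefficient of variation (CV) of 4.27%. Stmn3, a microtubule-destabilizing stathmin of neurons, was at 4589, 4664 and 4708 TPM. Pcsk1n, which encodes the granin-like precursor proSAAS, was at 4172, 4012 and 3092 TPM, lowest in WT-4. Cox8a, a subunit of cytochrome c oxidase, had 3790 TPM ± 104 and Rplp1, an acidic protein of the large ribosomal subunit, had 3923 TPM ± 440 (SD, n = 3). The polyubiquitin gene Ubb had 3528, 3404 and 4094 TPM and the brain creatine kinase gene Ckb 3191, 2893 and 3618 TPM, both highest in WT-4. The calcium sensor gene Vsnl1 (3076 ± 74.4 TPM), the complexin gene Cplx1 (2984 ± 59.3), the deubiquitinase gene Uchl1 (2874 ± 66.2) and the β-synuclein gene Sncb (2786 ± 125) followed. Apoe, the main lipoprotein gene of brain and in brain mostly a glial product, was in 4th place at 4032, 3301 and 4442 TPM.

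**Figure D1:**
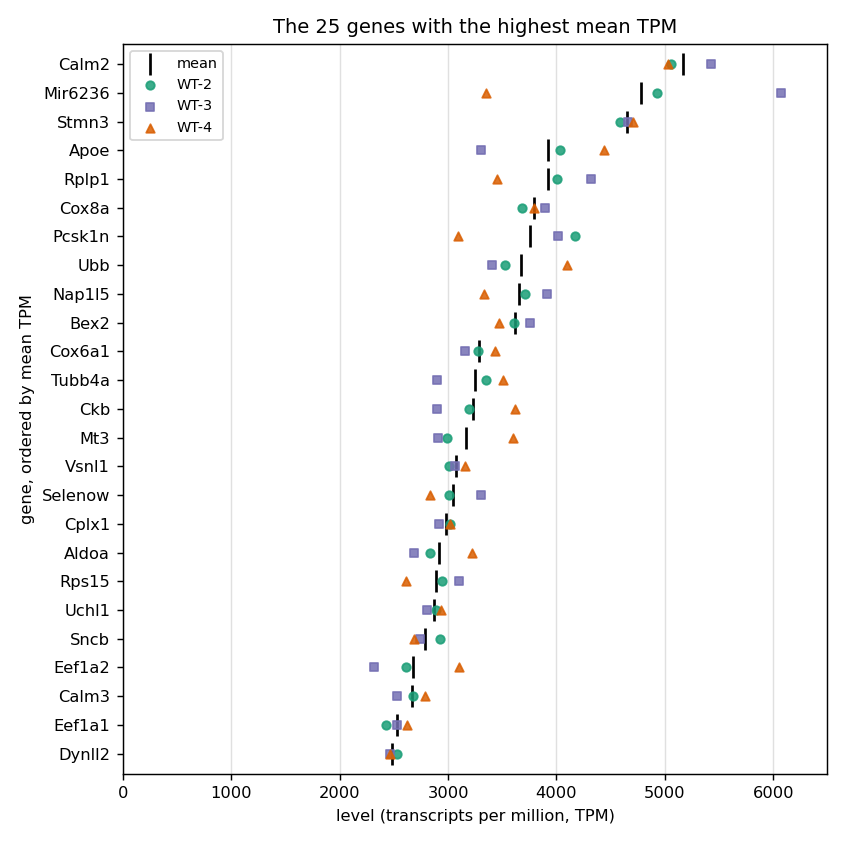
Level of the 25 genes with the highest mean TPM in each WT library (points) with their mean (bar), on a linear axis from 0. Stmn3, Cplx1, Vsnl1 and Dynll2 lie close together in the 3 libraries, while Mir6236 runs from 3346 TPM in WT-4 to 6076 TPM in WT-3.

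The ranking by share of counts favoured longer transcripts. It was led, after the unnamed entry, by Snap25, a SNARE protein of synaptic vesicle fusion, with 0.393%, 0.387% and 0.396% of the counts, with an SD of 0.00488 percentage points. Ckb (0.292% ± 0.0347), Ndrg4 (0.280% ± 0.00780) and the glycolytic enzyme gene Aldoa (0.265% ± 0.0267) were also among its first 10 entries. The lists of the first 25 by TPM and by counts shared 11 genes. Median exon length was 1844 bases in the list by TPM and 3161.5 bases in the list by counts, and 14 against 2 members were shorter than 2000 bases.

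Mir6236 was in second place by TPM, although it took 0.0183% ± 0.00518 of the counts, because its annotated gene has only 123 bases. It had 3878 counts in WT-2, 4911 in WT-3 and 2991 in WT-4. The mature miRNA of this gene is printed here from RefSeq because it identifies the entry, with the seed (bases 2 to 8) in capitals, and it lies on the plus strand at chr9:110281353-110281371 of GRCm38.p6.
mmu-miR-6236: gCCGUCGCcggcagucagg
A poly(A) library counts reads over the annotated gene and not this mature RNA of 19 bases. The TPM value is therefore not a level of the mature RNA, and the source of the reads was not tested. The order of the libraries, WT-3 above WT-2 above WT-4, was the same for Mir6236, for ENSMUSG00000119584.1 and for Bc1, a short brain noncoding RNA found in dendrites, which had 160 CPM in WT-3, 145 in WT-2 and 79.0 in WT-4.

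Gene classes were compared by their share of counts, and a gene may belong to more than 1 class. The 84 cytosolic ribosomal protein genes took 2.81% in WT-2, 2.99% in WT-3 and 2.76% in WT-4, the most of the classes examined, and held 5.88% ± 0.308 of all TPM. Of them, 80 reached 10 CPM. Rpl24, Rps10, Rpl3l and Rpl36al did not, at between 0.522 and 2.55 TPM. Whether these levels are truly low or reflect lost reads was not tested for any of them. Reads that fit more than 1 place or gene were not counted. The levels of ribosomal protein genes with near-identical copies or overlapping genes are therefore uncertain. The 25 genes of synaptic vesicles and transmitter release took 2.31% ± 0.0573 (SD, n = 3), with Cplx1, Sncb, the vesicle GTPase gene Rab3a (1859 ± 21.1 TPM) and Snap25 (1867, 1828 and 1854 TPM) at the top. Glycolysis took 1.77%, 1.67% and 1.96%, highest in WT-4, and was led by Aldoa, Ldhb, Gapdh and Pkm. Pan-neuronal genes took 1.32% ± 0.0182, translation factors 1.22% ± 0.0358, led by the neuronal elongation factor gene Eef1a2 at 2615, 2319 and 3097 TPM, and chaperones 1.19% ± 0.0185, led by Hsp90ab1 at 2291 ± 51.0 TPM.

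Cytoskeletal and membrane classes were smaller and steady. Microtubule-associated proteins took 0.890% ± 0.00815 of the counts, tubulins 0.779% ± 0.0292, sodium and calcium pumps 0.764% ± 0.0284, calmodulins 0.689% ± 0.00740, the vacuolar ATPase 0.664% ± 0.00675 and neurofilaments 0.264% ± 0.00867. Among the latter Nefl, Ina and Nefm lay between 561 and 660 TPM on average and Nefh at 230 ± 37.8 TPM. The synucleins took 0.238% ± 0.00672. Of these presynaptic proteins, Sncb (2786 TPM) exceeded Sncg (824 ± 61.5 TPM), and the ranges of both genes did not overlap. Neuropeptides and granins took 0.841%, 0.836% and 0.759%, lowest in WT-4. Immediate early genes, which report recent activity, took only 0.0219% ± 0.00413, with Jun at 62.0 ± 8.48 TPM and Fos at 54.9, 38.2 and 30.9 TPM.

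**Figure D2:**
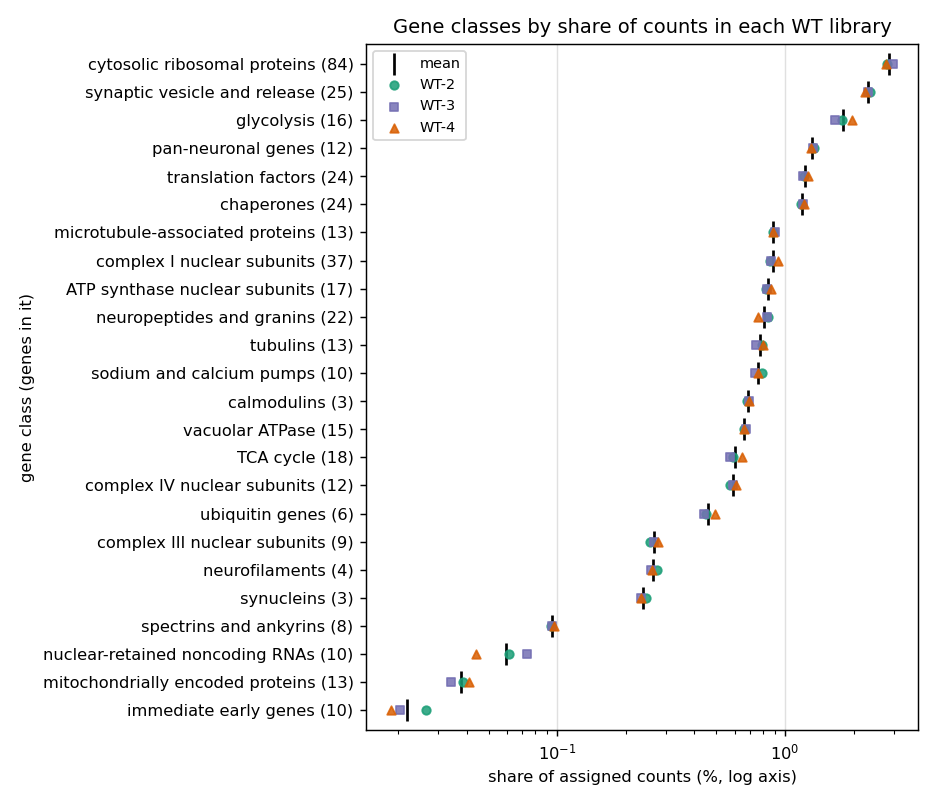
Share of the assigned counts taken by each gene class in each WT library (points) with the mean (bar), on a log axis; the number of genes in a class stands behind its name. Cytosolic ribosomal proteins (mean 2.85%) lead and immediate early genes (mean 0.0219%) are last, and nuclear-retained noncoding RNAs show the widest separation of libraries, from 0.0438% in WT-4 to 0.0736% in WT-3.

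Nuclear genes of respiratory complexes I, III and IV and of the ATP synthase, 75 in all, took 2.51%, 2.56% and 2.68% of the counts and 5.78% ± 0.175 of TPM. Complex I, which oxidizes NADH, took 0.885% ± 0.0368 with 37 genes, and Ndufa4 (1569 ± 51.2 TPM), a subunit first assigned to complex I and now placed in complex IV, led that list. Complex IV took 0.592% ± 0.0187, the ATP synthase 0.843% ± 0.0212, led per length by Atp5k (1658 ± 53.8 TPM), and complex III 0.266% ± 0.0115. By TPM complex IV (1.76%) stood above the ATP synthase (1.15%), the reverse of their order by counts. The TCA cycle took 0.603% ± 0.0384, with the malate dehydrogenase gene Mdh1 at the top.

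Transcripts of the mitochondrial genome were scarce in these libraries beside the nuclear ones, at 0.0387%, 0.0342% and 0.0408% of the counts for the 13 protein genes. The pull-down selected ribosomes with tagged L10a, a cytosolic ribosomal protein, so these shares do not give mitochondrial transcript levels in the cells. mt-Co1, the core subunit of complex IV, had 311, 263 and 317 TPM and mt-Nd1, of complex I, had 268, 231 and 267 TPM. For 6 of the genes (mt-Co2, mt-Co3, mt-Atp6, mt-Atp8, mt-Nd3 and mt-Nd4l) no library held more than 3 counts. These genes have nuclear copies, their reads can be lost as not uniquely aligned (3.60% to 3.72% of the reads per library), and the part of that loss in these values was not tested. Nuclear-retained noncoding RNAs, which are not expected on ribosomes, took 0.0612%, 0.0736% and 0.0438%. Malat1, an abundant RNA of nuclear speckles, had 17.5, 25.8 and 11.1 TPM, and Meg3, an imprinted noncoding RNA of neurons, had 57.4, 65.9 and 40.3 TPM, with WT-3 highest and WT-4 lowest for both.

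The label of the libraries was checked against markers of DAergic neurons and of other cells of the midbrain. All 16 DAergic markers were above 1 CPM in the 3 libraries. Th (ENSMUSG00000000214.12) had 683, 622 and 776 TPM in WT-2, WT-3 and WT-4 and ranked 240th of all genes by mean TPM. Slc6a3 (ENSMUSG00000021609.7) had 485, 468 and 459 TPM, with a CV of 2.82%. Aldh1a1 (ENSMUSG00000053279.9), an aldehyde dehydrogenase of ventral nigral neurons, had 327, 297 and 379 TPM. Th and Aldh1a1 were both highest in WT-4 and lowest in WT-3, whereas Slc6a3 did not follow this order. Ddc (ENSMUSG00000020182.17) had 262, 233 and 272 TPM, and Slc18a2 (ENSMUSG00000025094.9) had 140, 123 and 125 TPM. These defining genes were therefore present in every library at levels above those of most genes.

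The same libraries held markers of other cells. Summed over their lists, the DAergic markers reached 2696, 2500 and 2803 TPM and the 7 GABAergic markers 2756, 2717 and 2479 TPM, so that the ranges of both sums overlapped on this scale. They did not overlap by share of counts, where the DAergic markers took 0.294%, 0.273% and 0.310% and the GABAergic markers 0.152%, 0.155% and 0.150%. As a mean of the ratios per library, the GABAergic sum stood at 0.998 of the DAergic sum by exon length. This ratio was 0.692 by mean transcript length and 0.524 by CPM. The 9 astrocyte markers reached 3624, 3107 and 4288 TPM and the 8 oligodendrocyte markers 3585, 3470 and 4884 TPM, each above the DAergic sum in all 3 libraries. These sums depend on which genes a list holds and are not shares of cells. By quantitative PCR before sequencing, the paper reports that Th was enriched in the pulldowns relative to Cre-negative mice and Gad65 was not. In bulk RNA, fewer cells of a type and less RNA per cell cannot be told apart. Without an input library, neither background binding to the beads nor tagging of other cells was tested here. The libraries are therefore called ThCre-tagged midbrain libraries and not a purified cell type.

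Among the GABAergic genes, the parvalbumin gene Pvalb had 1029 ± 43.9 TPM and the somatostatin gene Sst 1122, 1021 and 771 TPM. The GABA-synthesizing enzymes Gad1 and Gad2 had 184 ± 7.37 and 116 ± 6.43 TPM, and the vesicular GABA transporter Slc32a1 311 ± 13.7 TPM. Th stood at 3.82, 3.23 and 4.31 times Gad1, and Slc6a3 at 1.49, 1.51 and 1.54 times Slc32a1, a ratio that hardly moved between pools. Of the glial genes, Gfap, which encodes the intermediate filament of astrocytes, had 909, 668 and 1112 TPM. Th stood at 0.751, 0.932 and 0.698 times Gfap, below 1 in each library. Aldoc, at 1548, 1407 and 1831 TPM, made the top of the astrocyte list and is also a glycolytic enzyme.

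Markers of the remaining cell types were lower. The glutamatergic markers summed to 204, 200 and 131 TPM, and the vesicular glutamate transporter of the midbrain, Slc17a6, had 113 ± 3.09 TPM. The 12 microglia markers summed to 239, 288 and 141 TPM, blood markers to 373, 436 and 157 TPM, and serotonergic markers to 218, 109 and 125 TPM. Oligodendrocyte precursor (8.33 ± 0.654 TPM), endothelial (10.1 ± 5.55), cholinergic (10.9 ± 5.03) and fibroblast markers (7.64 ± 3.93) were near the bottom. Noradrenergic neurons also express Th, but the noradrenaline-synthesizing enzyme Dbh had 94, 8 and 1 counts and the noradrenaline transporter Slc6a2 had 99, 9 and 0 counts in WT-2, WT-3 and WT-4, so that WT-2 held nearly all of this signal.

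**Figure D3:**
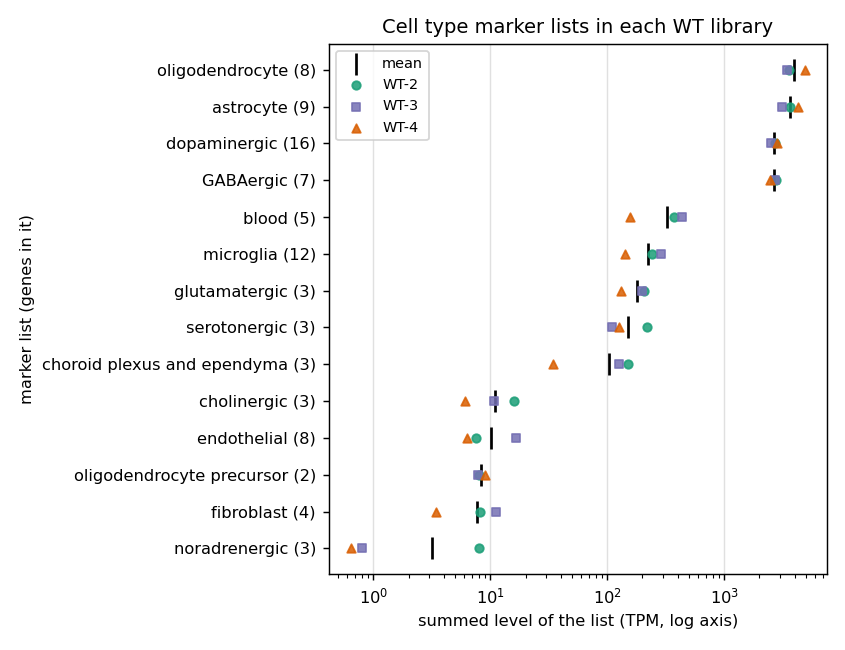
Summed TPM of each cell type marker list in each WT library (points) and its mean (bar), on a log axis; the number of genes in a list stands behind its name. Oligodendrocyte (mean 3980), astrocyte (3673), DAergic (2666) and GABAergic (2651) lists lie well above blood (322), microglia (223) and the rest.

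Within the DAergic set, genes of dopamine synthesis and handling spanned from Th down to Pts (17.3 ± 1.42 TPM) and Gch1 (17.6 ± 1.65 TPM), which make the tetrahydrobiopterin cofactor of Th. Qdpr and Spr, of the same cofactor pathway, stood higher at 424 ± 61.6 and 106 ± 7.51 TPM. These and the following levels are of whole libraries, which also held glial markers, and the cells they came from were not tested. The vesicular protein gene Slc10a4 had 175 ± 20.4 TPM, the autoreceptor gene Drd2 153 ± 8.47, the neurotrophic receptor gene Ret 125 ± 4.65 and the nicotinic receptor subunit gene Chrna6 78.4 ± 6.07. Of the monoamine oxidases, which break dopamine down, Maob had 43.5 ± 1.17 TPM and Maoa 35.3, 35.6 and 38.9. The transcription factors that define these neurons had a median of 20.1 TPM, against 129 TPM for the genes of dopamine synthesis and handling, and the ranges of both lists overlapped. En1 was at 121 ± 15.2 TPM, Nr4a2 at 35.6 ± 3.66, Pitx3 at 24.7 ± 1.89, Foxa1 at 23.0 ± 2.82, En2 at 23.8, 19.3 and 23.0, Lmx1b at 18.3 ± 0.777, Lmx1a at 12.2 ± 1.09 and Foxa2 at 11.1 ± 2.68. Otx2 (5.43 ± 1.36) and Sox6 (2.44 ± 0.503), which mark ventral tegmental and nigral neurons respectively, were the lowest of this list.

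By TPM, the estrogen-related receptors, nuclear receptors that drive mitochondrial genes, stood in the order Esrra, Esrrg, Esrrb. Esrrg (ENSMUSG00000026610.14), the gene deleted in the rest of the series, had 42.1, 39.5 and 39.8 TPM with a CV of 3.52%. Esrra had 101, 100 and 115 TPM and Esrrb 5.17, 5.03 and 4.76 TPM. The TPM ranges of the 3 receptors did not overlap in these libraries. Levels between genes depend on the length used, and the order by counts or by mean transcript length is not given here.

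Counts scaled by edgeR's TMM were used to describe the spread between pools. The median CV over the 9690 genes was 6.99%, against 3.27% from counting alone. It fell from 8.54% at 10 to 30 CPM to 5.23% at 1000 CPM and above, where the median from counting alone was 0.562%. The common biological coefficient of variation from edgeR was 0.0973, and it was 0.0550 without WT-4, 0.109 without WT-3 and 0.116 without WT-2. WT-2 and WT-3 differed by a median of 0.08 on the log2 scale, whereas WT-4 differed from them by 0.13 and 0.14. In each abundance group the median counting error was smaller than the median spread between pools.

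**Figure D4:**
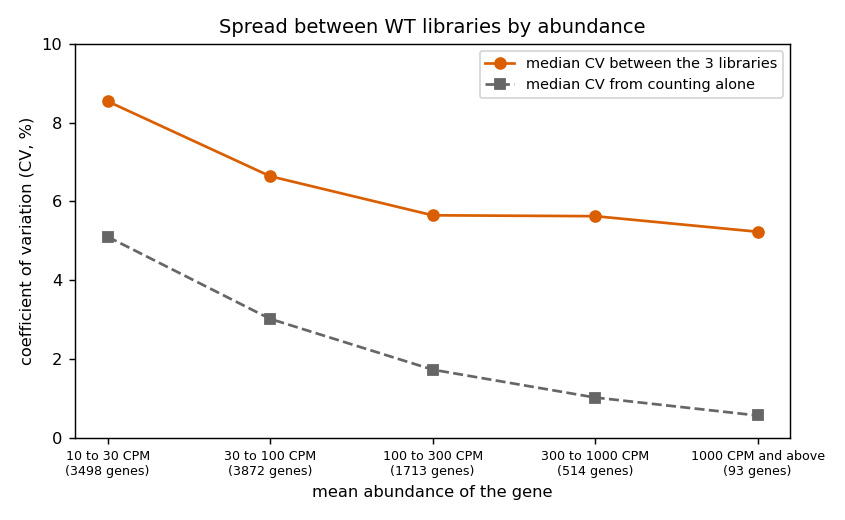
Median CV between the 3 WT libraries (circles) and the median CV that counting alone would give (squares) for genes grouped by mean CPM. Both fall with abundance, to 5.23% and 0.562% in the 93 genes at 1000 CPM and above.

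A gene was called variable where its highest library was at least 1.5 times its lowest, which held for 325 of the 9690 genes (3.35%). Of the 16 DAergic markers, 15 reached 10 CPM (Foxa2 did not) and none of these was variable, nor was any of the 7 GABAergic markers. Counting only members with a mean of at least 10 CPM, variable ones were found for oligodendrocyte (4 of 8), astrocyte (3 of 9), microglia (4 of 4), serotonergic (3 of 3), glutamatergic (2 of 3) and blood markers (2 of 2), for nuclear-retained noncoding RNAs (4 of 6), immediate early genes (3 of 6) and neuropeptides and granins (4 of 20), each above the share over all genes. Choroid plexus and ependyma markers (1 of 2), sex-linked genes (1 of 1), sodium and calcium pumps (1 of 10) and synaptic vesicle and release genes (1 of 25) also held a variable member. The share called was 5.23% at 10 to 30 CPM and 1.58% at 100 to 300 CPM, so 3.35% is not matched to the abundance of a list. Sox6 was the only variable gene of the 8 DAergic transcription factors at 10 CPM or more, at 1.52 times. None of the 80 ribosomal protein genes and no nuclear gene of the respiratory complexes at this level was variable. WT-4 was the highest library for 147 of the 325 genes (1.52% of the 9690) and the lowest for 154 (1.59%), WT-3 the highest for 94 (0.97%) and the lowest for 123 (1.27%), and WT-2 the highest for 84 (0.867%) and the lowest for 48 (0.495%). The count of variable genes was 53 without WT-4, 166 without WT-3 and 241 without WT-2. Exon length and GC content moved with the libraries as well. Across genes, the Spearman correlation of a library's deviation with exon length was -0.23 for WT-4, 0.20 for WT-3 and 0.13 for WT-2, and that with GC content was 0.26 for WT-2, and their part in the lists below was not tested.

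Deviations are given as the log2 ratio of a library to the mean of the other 2. Astrocyte and oligodendrocyte markers were higher in WT-4. All 8 oligodendrocyte markers and all 9 astrocyte markers were highest in WT-4 and lowest in WT-3 on the TMM scale, with median deviations of WT-4 of 0.52 and 0.42, against 0.01 over all genes. Mbp, the myelin basic protein gene, had 489, 489 and 760 TPM, and Mobp, another myelin gene, had 167, 164 and 282 TPM, so that for both WT-2 and WT-3 were alike and WT-4 stood above them. The DAergic markers moved less, with a median deviation of WT-4 of 0.18 and 9 of 15 members highest there. Glycolytic genes (median 0.19, 14 of 16 highest in WT-4), genes of the TCA cycle (0.15, 17 of 18) and complex I (0.11, 33 of 37) lay on the same side, beside 4251 of the 9690 genes that were highest in WT-4.

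Several other groups were lower in WT-4. The microglial complement genes C1qa, C1qb and C1qc and the receptor gene Csf1r, the 4 of 12 microglia markers that reached 10 CPM, were each highest in WT-3 and lowest in WT-4, with a median deviation of WT-4 of -0.85. The hemoglobin genes Hbb-bs (36.7, 48.5 and 16.3 CPM) and Hba-a1 (33.2, 34.8 and 13.9 CPM) followed the same order. The nuclear-retained RNAs had a median deviation of -0.58 in WT-4 and 0.49 in WT-3. Slc17a7, the vesicular glutamate transporter of cortical and some thalamic neurons, had 81.8, 76.8 and 10.4 TPM, from 2823, 2720 and 406 counts. Ttr, the transthyretin gene that is abundant in choroid plexus, had 939, 819 and 72 counts. The transcription factor gene Zic1 had 28.5, 40.1 and 7.70 CPM, Zic2 14.8, 15.4 and 3.25 CPM, and the glycine transporter gene Slc6a5 22.8, 15.7 and 5.76 CPM. WT-4 was the lowest library for each of these genes.

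Genes on the sex chromosomes separated WT-4 as well. The Y-linked genes had 1065, 949 and 2 counts (Ddx3y), 195, 184 and 2 (Eif2s3y), 121, 113 and 0 (Kdm5d) and 54, 42 and 0 (Uty) in WT-2, WT-3 and WT-4. Xist, the noncoding RNA of the inactive X, had 13, 14 and 69 counts. WT-4 was the lowest for every Y-linked gene and the highest for Xist, so the sex of the mice in a pool and any other difference of WT-4 cannot be told apart in these libraries.

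The genes farthest above the other pools in WT-4 were Ucn, Chil1, Cartpt, Slc38a3 and Pou4f1. Ucn, the stress peptide urocortin, had 21.7, 19.6 and 69.9 CPM, and Cartpt, the precursor of CART peptides, had 265, 268 and 530 CPM. Both peptides are known from the Edinger-Westphal region of the midbrain. Chil1, a chitinase-like gene of reactive astrocytes, had 516, 514 and 1239 counts, the glutamine transporter gene Slc38a3 had 37.3, 28.1 and 62.5 CPM, and the transcription factor gene Pou4f1 had 7.95, 7.49 and 14.8 CPM. For each of these genes WT-4 was at least 1.5 times both other libraries.

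The genes farthest above the other pools in WT-3 included Prkcd, Ramp3, Pmch and Hcrt. Prkcd, a protein kinase C gene known from thalamic neurons, had 10.1, 63.4 and 17.9 CPM, and Ramp3, a receptor activity-modifying protein gene, had 5.86, 21.6 and 6.58 CPM. Hcrt, the orexin precursor, had 191, 289 and 44.8 CPM, and Pmch, the precursor of melanin-concentrating hormone, had 373, 885 and 255 counts. Hcrt and Pmch are peptides of lateral hypothalamic neurons, and for both the order was WT-3, WT-2, WT-4, with a deviation of Hcrt of -2.38 in WT-4 and 1.27 in WT-3. Ribosomal protein genes were highest in WT-3 for 57 of 80 members, beside 2851 of the 9690 genes, with a median deviation of 0.09 against -0.01 over all genes.

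Serotonergic markers and activity-regulated genes were higher in WT-2. Tph2, the serotonin-synthesizing enzyme of the brain, had 141, 75.7 and 87.2 TPM, Slc6a4, the serotonin transporter gene, 58.5, 29.7 and 30.8 CPM, and the raphe transcription factor gene Fev 17.5, 6.40 and 8.18 CPM. The other libraries were alike in Tph2 and Slc6a4, and WT-2 stood above both. All 6 immediate early genes with at least 10 CPM were highest in WT-2, beside 2588 of the 9690 genes, with a median deviation of 0.52 against -0.01 over all genes. Avp, the vasopressin precursor, had 54.2, 33.8 and 6.84 CPM, Pomc, the precursor of melanocortins and β-endorphin, 20.2, 12.9 and 3.46 CPM, and the class II histocompatibility genes H2-Ab1 23.4, 12.3 and 2.47 and Cd74 42.0, 28.2 and 6.10 CPM. These 4 genes shared the order WT-2, WT-3, WT-4.

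**Figure D5:**
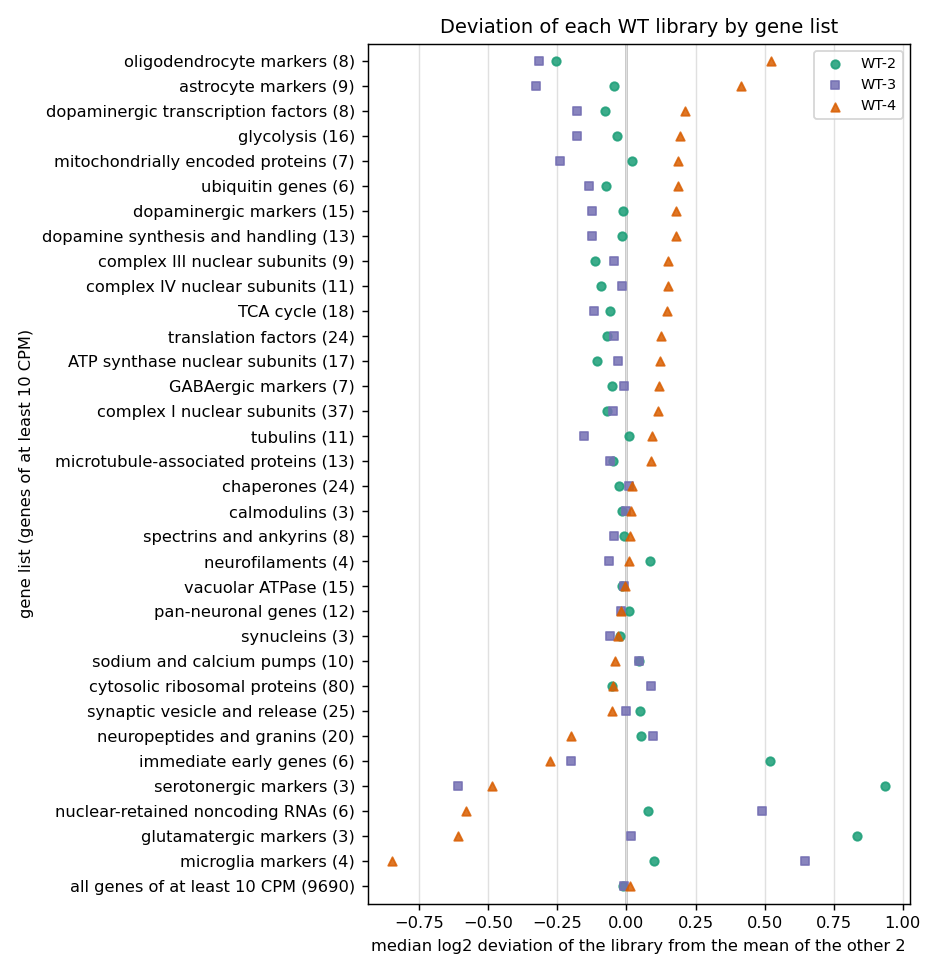
Median log2 deviation of each WT library from the mean of the other 2, for gene lists with at least 3 members of at least 10 CPM (number of members behind the name) and for all such genes. Lists are ordered by the value in WT-4, from 0.52 for oligodendrocyte markers to -0.85 for microglia markers; serotonergic markers (0.94) and immediate early genes (0.52) are high in WT-2.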

How the data were processed

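Poly(A)-selected, non-strand-specific BAC-TRAP libraries were sequenced by the authors on an Illumina instrument. Per the submitters' processing notes, reads were trimmed with Trim Galore 0.6.6, aligned with STAR 2.7.9a and counted per gene with HTSeq 0.11.3; these notes name GRCm39, whereas the methods name GRCm38 with GENCODE release M24, so no coordinates were taken from the count table (that of 1 miRNA is from RefSeq). The deposited values are raw read counts per gene, without normalization. Summary lines for unassigned reads (3.18% to 4.21% outside genes, 5.68% to 5.78% ambiguous, 3.60% to 3.72% not unique) were left out of all totals.

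Of 53700 gene IDs, 52147 (97.1%) matched GENCODE M21 without their version, which gave names, biotypes and exon lengths. CPM used assigned counts, and TPM used matched genes. Deviations used TMM factors (edgeR 4.0.16, R 4.3.3) and a prior of 0.5 CPM. The code for scaling and dispersion was run on simulated counts with the same dispersion for all genes. That setting is simpler than these libraries, so it checks the code only. With 1 group there was no test between groups. A gene was variable where its mean was at least 10 CPM and its highest library was at least 1.5 times its lowest. Every pair of libraries differed by more than counting error (chi-square per degree of freedom 6.17 to 27.6), so none was taken as a copy of another, and the labels give them as separate samples; intervals and limits cover counting error only. Named genes were members of the lists, the first 25 by TPM and by counts, up to 4 leading members per class, the 20 with the highest ratio between libraries, the 5 farthest above and below in each library, the 5 leading genes of each main noncoding biotype, the estrogen-related receptors and genes of the sex chromosomes. The libraries, lists and rules were chosen with earlier results of these data known. Alternatives changed the length, scaling, filters, prior and thresholds and left out each library.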

Additional observations from a re-analysis of the deposited data

How the results depend on the processing

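The classes and lists were recomputed under the other settings; among the values that answer a comparison, 189 moved by less than the spread between libraries (for counts of genes, by less than 1.5 times) and 33 by more. Leaving out 1 library cannot move a mean over 3 libraries by as much as their SD. For shares and ratios these settings were therefore bound to fall among the 189, and that part of the count is no measure of robustness. Most of the 33 came from dividing by exon length. As a share of TPM, cytosolic ribosomal proteins took 5.88%, complex I 2.17%, synaptic vesicle and release genes 1.78%, complex IV 1.76%, translation factors 1.27%, neuropeptides and granins 1.20%, tubulins 1.19%, the ATP synthase 1.15%, pan-neuronal genes 1.15%, microtubule-associated proteins 1.01%, chaperones 0.988%, calmodulins 0.954%, ubiquitin genes 0.799%, complex III 0.692%, the vacuolar ATPase 0.678%, sodium and calcium pumps 0.485%, synucleins 0.396%, neurofilaments 0.209%, mitochondrially encoded proteins 0.101%, spectrins and ankyrins 0.0181% and nuclear-retained noncoding RNAs 0.0138%. The 100 most abundant entries took 15.9% with protein-coding genes only.

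Ratios to the DAergic sum are means of the ratios per library. For the summed GABAergic markers this ratio was 0.998 by exon length, 0.692 by mean transcript length and 0.524 by CPM. It lay between 0.953 and 1.05 when 1 library was left out. Deviations close to 0 could change sign, as those of GABAergic markers (-0.0080 to 0.0148) and synaptic vesicle genes (-0.0026 to 0.0189) in WT-3 did with scaling by total counts. The astrocyte sum stood at 1.37 and, by mean transcript length, at 1.82. The oligodendrocyte sum stood at 1.49, and at 2.17 by mean transcript length and 2.08 by CPM. The microglia sum stood at 0.0847 and at 0.0368 by CPM. The 325 variable genes became 1787 with a minimum of 1 CPM and 55 with a ratio of 2, and lay between 53 (without WT-4) and 241 when 1 library was left out. The common biological coefficient of variation lay between 0.0550 (without WT-4) and 0.116.

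No paired analysis was possible because these values come from 1 group and from no test. Dixon's rule for outlying samples is not applied to groups of 3. With 3 pools, SDs are rough. Depth limits genes near 0.145 CPM. At 10 to 30 CPM the median CV was 8.54%, beside a median of 5.10% from counting alone, and these are separate medians.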

Other observations

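Genes related to those at the extremes were looked up after their values were seen, so they are given as values only. Oxt, the oxytocin precursor, had 239, 250 and 16 counts in WT-2, WT-3 and WT-4, lowest in WT-4 like Avp, another hypothalamic peptide gene. The class II histocompatibility genes H2-Aa (13.3, 7.44 and 2.08 CPM) and H2-Eb1 (17.5, 13.6 and 6.92 CPM) had the same order as H2-Ab1 and Cd74. The immunoglobulin genes Ighg2c (516, 294 and 120 counts) and Igkc (24.6, 24.3 and 7.10 CPM) were lowest in WT-4, whereas Ighm (22.5, 16.9 and 18.2 CPM) was not. Tnnt1, a troponin gene also expressed in thalamus, had 9.69, 21.6 and 8.22 CPM and Rgs16, a regulator of G protein signalling, 13.9, 33.7 and 16.4 CPM, both highest in WT-3 like Prkcd and Ramp3.

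Among noncoding entries, 2900097C17Rik led the long intergenic RNAs with 584, 628 and 403 CPM and Tug1 the antisense genes with 91.9, 93.4 and 97.7 CPM. Gas5, a host gene of small nucleolar RNAs, had 144, 149 and 121 CPM. Gm10736, a processed pseudogene, reached 1414 TPM with 675, 810 and 742 counts, and the assignment of reads to a processed pseudogene is uncertain.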
